A study of Mus musculus with 77 samples.

Results

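Dopamine loss was compared between both classes of striatal projection neuron, by asking for every gene whether the lesion moved it differently in one class than in the other. The quantity described is a difference of differences: lesion minus mock in direct pathway spiny projection neurons (dSPN), minus lesion minus mock in indirect pathway spiny projection neurons (iSPN). It uses 38 of the 77 arrays of the series, those of the mice that received saline, and was computed for 13271 of the 18194 genes on the array. A positive difference means that the lesion effect was higher in dSPN, a negative one that it was lower in dSPN.

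The mice were male, 9 to 14 weeks old and of C57BL/6J background, and all carried a BAC transgene, Drd1::EGFP-L10a for dSPN or Drd2::EGFP-L10a for iSPN. The transgene puts a fluorescent tag on ribosomes wherever that dopamine receptor's regulatory sequences are active, and the tagged ribosomes of the dorsal striatum of a single mouse were purified with their messenger RNA (translating ribosome affinity purification, TRAP). Lesioned mice had 6-hydroxydopamine (6-OHDA, 3.2 µg/µl in 0.02% ascorbate/saline), a toxin taken up by dopamine neurons, injected into the medial forebrain bundle of the right side. Mock-lesioned mice had the vehicle, and only the lesioned mice were then selected by turning and limb-use tests. In dSPN 10 mock and 11 lesioned mice received chronic saline, and in iSPN 10 mock and 7 lesioned mice did. Lesioned mice on levodopa (12 and 11 in dSPN at a low and a high dose, 8 and 8 in iSPN) entered the main fit only through the common estimate of spread. Their levels are given near the end. The Drd2 line can also tag cholinergic interneurons, which carry this receptor.

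Dopamine acts on dSPN through D1 receptors, which raise cyclic AMP, and on iSPN through D2 receptors, which lower it. In the textbook account of Parkinson's disease, loss of dopamine therefore leaves dSPN less active and iSPN more active. Calcium, cyclic AMP and MAP kinase signals in active neurons switch on a known set of genes, first nuclear factors such as Fos and the Nr4a receptors, then secreted and synaptic proteins such as Vgf, Scg2, Nptx2 and Arc.

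All levels are deposited log2 values of Affymetrix mouse 430 2.0 arrays, so that 1 unit is a factor of 2, and changes are differences of group means with the standard error (SE) of a limma fit. A gene was called at a Benjamini-Hochberg adjusted p under 0.05 over the 13271 genes, and unless said otherwise an adjusted p is that of the difference between the lines in this fit. The array medians lay between 4.33 and 4.41, and arrays correlated with others of their group at a median of 0.964 to 0.987. The purified RNA followed the labels. Drd1 lay between 11.63 and 11.93 in mock dSPN and between 9.48 and 10.54 in mock iSPN, and Drd2 between 7.15 and 8.05 in dSPN and between 12.09 and 12.73 in iSPN, with no overlap. Fewer tagged cells and less ribosome-bound RNA per cell cannot be told apart in such samples. In the order of the title numbers the animal number climbs, drops back and climbs again, which cuts the series into 7 stretches, here called runs. The labels do not say what these runs are. Each run lies within a line and runs overlap strongly with the lesion: of the dSPN saline arrays only run 1 holds both groups (5 lesioned, 4 mock), and of the iSPN arrays run 5 (1 lesioned, 9 mock) and run 6 (2 lesioned, 1 mock).

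The lesion moved 645 of the 13271 genes (4.86%) differently in dSPN and iSPN. Of these, 219 (1.65%) had the higher effect in dSPN and 426 (3.21%) the lower. In dSPN 85 genes rose after the lesion (0.64%) and 244 fell (1.84%), and in iSPN 424 rose (3.19%) and 399 fell (3.01%). The called differences had a median size of 0.82, from 0.21 to 4.95, with 235 over 1 and 43 over 2, while the median SE was 0.23 over all genes. At an unadjusted p under 0.05 there were 2239 genes.

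Among the 645 genes the lesion effect had opposite signs in 591 (91.6%), against 51.7% of all genes tested. A large difference by itself favours opposite signs, so that this share describes the called genes and is no separate finding. A stricter reading is that each line's own effect passed the test. That held for 58 genes in opposite directions (0.437% of the 13271), of which 40 fell in dSPN and rose in iSPN and 18 rose in dSPN and fell in iSPN. All 58 were also among the 645. Both lines were called in the same direction for 21 genes (0.158%), of which only Penk also differed between the lines. Of the rest of the 645, 325 were called in iSPN alone, 111 in dSPN alone and 150 in neither line. Across all genes the lesion effects in dSPN and iSPN had a Pearson correlation of -0.07, a description over genes that are not independent, from effects that share no array.

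**Figure D1:**
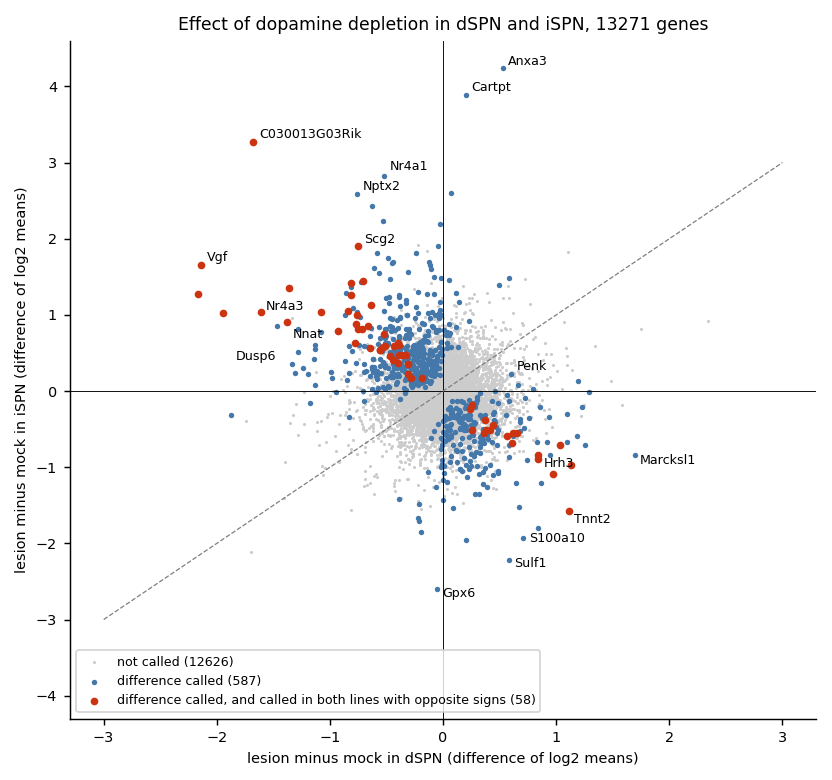
Lesion minus mock in dSPN (horizontal) against lesion minus mock in iSPN (vertical), both as differences of log2 means, for 13271 genes. Grey points were not called, blue points were called by the difference between the lines, and red points are the 58 that were also called in both lines in opposite directions; the dashed line marks equal effects. Vgf (-2.14 and 1.65) stands at the upper left and Tnnt2 (1.11 and -1.58) at the lower right.

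When run was added to the fit as a fixed block, 148 genes were called (39 higher and 109 lower in dSPN), among them 143 of the 645, or 22.2%. Of the 645, 644 kept their sign and the median ratio of the blocked to the unblocked difference was 1.01. The blocked fit reuses the arrays that picked these genes, so that the kept signs and the ratio are no separate check. The 11 genes then called in both lines in opposite directions were all among the 58 (Vgf, Scg2, Dusp3, Rgs2, Syt6, Mas1, Srm, Sik3, Pdcd6, R3hdm1 and Btbd10). The other 47 lost the call of at least 1 line's own effect. With the dSPN effect taken from run 1 alone, 129 genes were called, among them 124 of the 645. All 645 kept their sign, again in arrays that had picked them. Of the genes picked by the naming rule, 29 were called in dSPN and 56 in iSPN, and with the block 16 and 20 of these effects stayed called. With the block the iSPN effect rests on runs 5 and 6. Run 7 holds 4 of the 7 lesioned iSPN saline arrays but no mock array, and the low-dose iSPN group lies in that run alone. The SE of the Vgf difference was 0.39 with the block and 0.26 without it. Levodopa arrays also bear on the blocked dSPN effect, since the high-dose group joins run 2, which holds no mock array, to run 3. Rises and falls within a line are given below from the fit without the block. Effects within single runs are given for Vgf, Nnat and Tnnt2, and in iSPN they rest on 1 lesioned array in run 5 and 1 mock array in run 6. They had the sign of the whole-line effect for those genes, but not for every named gene. The iSPN effect of Nrp2 was 0.78 but -0.32 in run 5, and that of Gpr149 was -0.67 but 0.15 in run 6.

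**Figure D2:**
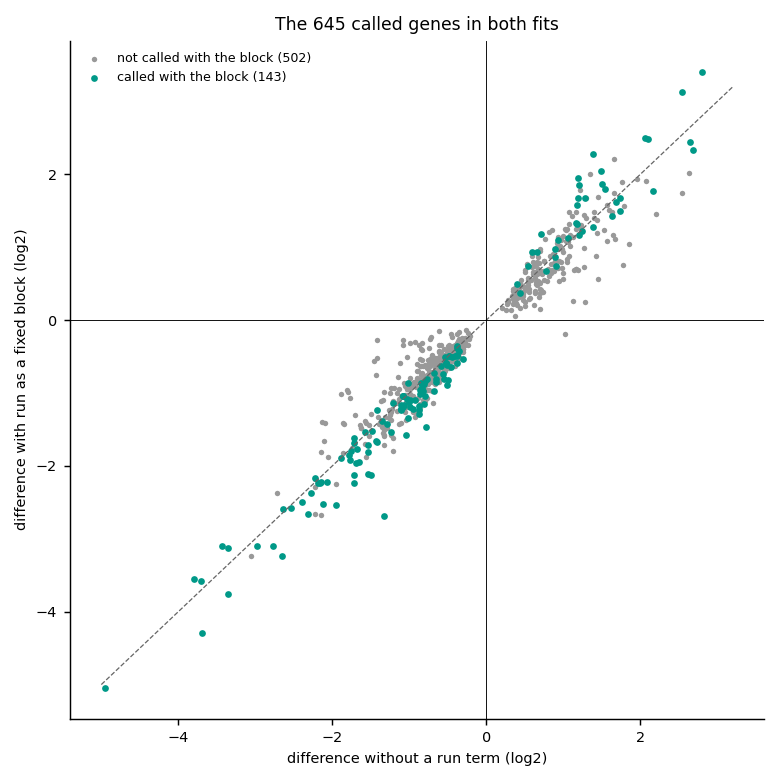
Difference between the lines for the 645 called genes without a run term (horizontal) and with run as a fixed block (vertical), both log2. Green points (143) were called with the block and grey points (502) were not; the dashed line marks equal values, and 644 of the points keep their sign.

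Secreted peptides and granins were among the genes with the largest differences. Vgf, whose protein is stored in dense-core vesicles and cut into signalling peptides, fell by 2.14 in dSPN and rose by 1.65 in iSPN. Scg2 (secretogranin II), a granin of the same vesicles, fell by 0.75 in dSPN and rose by 1.90 in iSPN. Cartpt, the precursor of the peptide CART, and Nts, the precursor of neurotensin, rose in iSPN and were not called in dSPN, and for both the difference between the lines was called. Penk, the enkephalin precursor, rose in both lines, in iSPN only without the block.

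The lowest, median and highest dSPN levels of Vgf were 8.45, 9.15 and 9.67 in mock mice and 6.42, 6.77 and 8.69 in lesioned mice. The iSPN levels were 7.82, 8.25 and 8.77 in mock and 9.84, 9.95 and 10.26 in lesioned mice. In iSPN every lesioned array was above every mock array, and in dSPN 1 lesioned array, at 8.69, reached into the mock range. The difference was -3.79 (SE 0.26, adjusted p = 8.83e-19). Within run 1 the dSPN effect was -2.14, and the iSPN effect was 1.52 in run 5 and 1.79 in run 6.

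Mock dSPN arrays had Scg2 levels of 8.95, 9.81 and 10.00 (lowest, median, highest), and lesioned ones 8.33, 8.86 and 9.70. Mock iSPN arrays had 7.84, 8.25 and 8.67, and lesioned ones 9.80, 10.26 and 10.58. The iSPN groups were apart, and the dSPN groups overlapped. The lesion thus moved Scg2 by -0.75 in dSPN (adjusted p of that effect = 3.39e-05) and 1.90 in iSPN (adjusted p of that effect = 2.11e-17), and the difference was -2.65 (SE 0.19, adjusted p = 2.33e-18). In mock mice Scg2 was higher in dSPN arrays (mean 9.66 ± 0.36 (SD, n = 10)) than in iSPN arrays (8.27 ± 0.28 (SD, n = 10)), and after the lesion the order of the means was turned (8.91 ± 0.37 (SD, n = 11) and 10.17 ± 0.34 (SD, n = 7)). Vgf showed the same turn of its group means, from 9.17 ± 0.35 and 8.31 ± 0.32 to 7.03 ± 0.68 and 9.96 ± 0.15.

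Levels of Cartpt in dSPN ran 3.55, 4.55 and 6.14 (lowest, median, highest) after mock lesion and 4.11, 5.07 and 5.98 after 6-OHDA. Those in iSPN ran 3.66, 5.20 and 5.67 after mock lesion and 7.49, 8.66 and 10.03 after 6-OHDA. The 3 groups other than lesioned iSPN lay on top of one another, and all 7 lesioned iSPN arrays stood above them. The effects were 0.20 in dSPN and 3.89 in iSPN, and the difference was -3.69 (SE 0.53, adjusted p = 4.03e-07). Nts had its own starting level in each line. In dSPN the lowest, median and highest levels of Nts were 3.57, 4.54 and 6.00 after mock lesion and 3.19, 4.88 and 5.82 after the lesion. In iSPN they were 5.92, 7.03 and 7.59 after mock lesion, then 9.35, 9.53 and 9.97. Lesioned and mock iSPN arrays did not overlap, lesioned and mock dSPN arrays did, and the difference was -2.53 (SE 0.46, adjusted p = 6.97e-05).

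Among the 22 tested of 27 neuropeptide, granin and processing genes, 3 had a higher and 5 a lower lesion effect in dSPN (36.4% called, against 4.86% of all genes), with a median difference of -0.0046 against 0.0056 for all genes. The lower ones were Vgf, Cartpt, Scg2, Nts and, outside the naming rule, Pam (-1.50, blocked adjusted p = 0.25), the enzyme that amidates peptides. The higher ones were Sst (1.29, blocked adjusted p = 0.323), Scg3 (0.77, also outside the rule, blocked adjusted p = 0.138) and Penk. With the block 4 stayed called lower and none higher. Penk ran from 10.59 to 11.11 in mock dSPN and from 11.14 to 11.67 after the lesion. In iSPN it ran from 12.72 to 13.02 and then from 13.02 to 13.21, so that the groups were apart in dSPN and, by a margin under 0.01, also in iSPN. Its effects were 0.60 in dSPN and 0.23 in iSPN, and the difference of 0.37 (SE 0.09, adjusted p = 0.00724) was lost with the block (adjusted p = 0.12). The iSPN effect of Penk was not called with the block either (adjusted p of that effect = 0.52). For the other marker peptides no difference between the lines was called: Pdyn (prodynorphin) had 0.60 (SE 0.34, adjusted p = 0.376) and Tac1 (substance P precursor) 0.12 (SE 0.15, adjusted p = 0.755).

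Scg2 and Cartpt are shown here with their promoters because each holds a full cAMP response element (CRE, TGACGTCA), the site bound by the CREB family. They come first by size among the called named genes with such an element in the RefSeq promoter table (GRCm38.p6, 250 bases before to 50 after the start). Each line is 5′ to 3′ on the gene's strand, ends at the base before the start, and has the element in capitals. The Scg2 stretch is chr1:79440027-79440276 on the minus strand with the element 68 bases before the start and a GC content of 48%, and that of Cartpt is chr13:99900684-99900933 on the minus strand with the element 112 bases before the start and a GC content of 66.8%.
Scg2: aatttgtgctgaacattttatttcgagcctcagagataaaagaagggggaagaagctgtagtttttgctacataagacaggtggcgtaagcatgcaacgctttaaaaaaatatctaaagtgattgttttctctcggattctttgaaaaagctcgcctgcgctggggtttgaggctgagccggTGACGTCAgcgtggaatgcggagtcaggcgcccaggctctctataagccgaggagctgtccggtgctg
Cartpt: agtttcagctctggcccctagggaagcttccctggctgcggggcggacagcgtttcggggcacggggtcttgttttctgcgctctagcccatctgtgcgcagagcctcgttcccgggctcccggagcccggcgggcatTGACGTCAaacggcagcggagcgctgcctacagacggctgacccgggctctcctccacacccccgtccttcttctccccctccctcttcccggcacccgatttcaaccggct

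Of the 78 named genes 60 have a window in that table, and 6 of them hold a full element (Cartpt, Scg2, Slc18a2, Sst, Th and Cycs). On both strands the full element was in 5.24% of the 439 windows of genes called lower in dSPN, 2.54% of the 236 windows of genes called higher and 2.91% of the 13731 windows of all tested genes. The short element TGACG, which the full one contains, gave 32.1%, 25.4% and 29.9%. The AP-1 site TGANTCA, bound by Fos and Jun proteins, gave 8.43%, 4.66% and 5.06%. The Egr site GCGTGGGCG gave 1.37%, 1.27% and 1.17%, and the CArG box of the serum response factor 2.05%, 0.424% and 1.35%. These shares describe letters in the windows and say nothing of whether a factor binds there. A gene can have several windows.

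**Figure D3:**
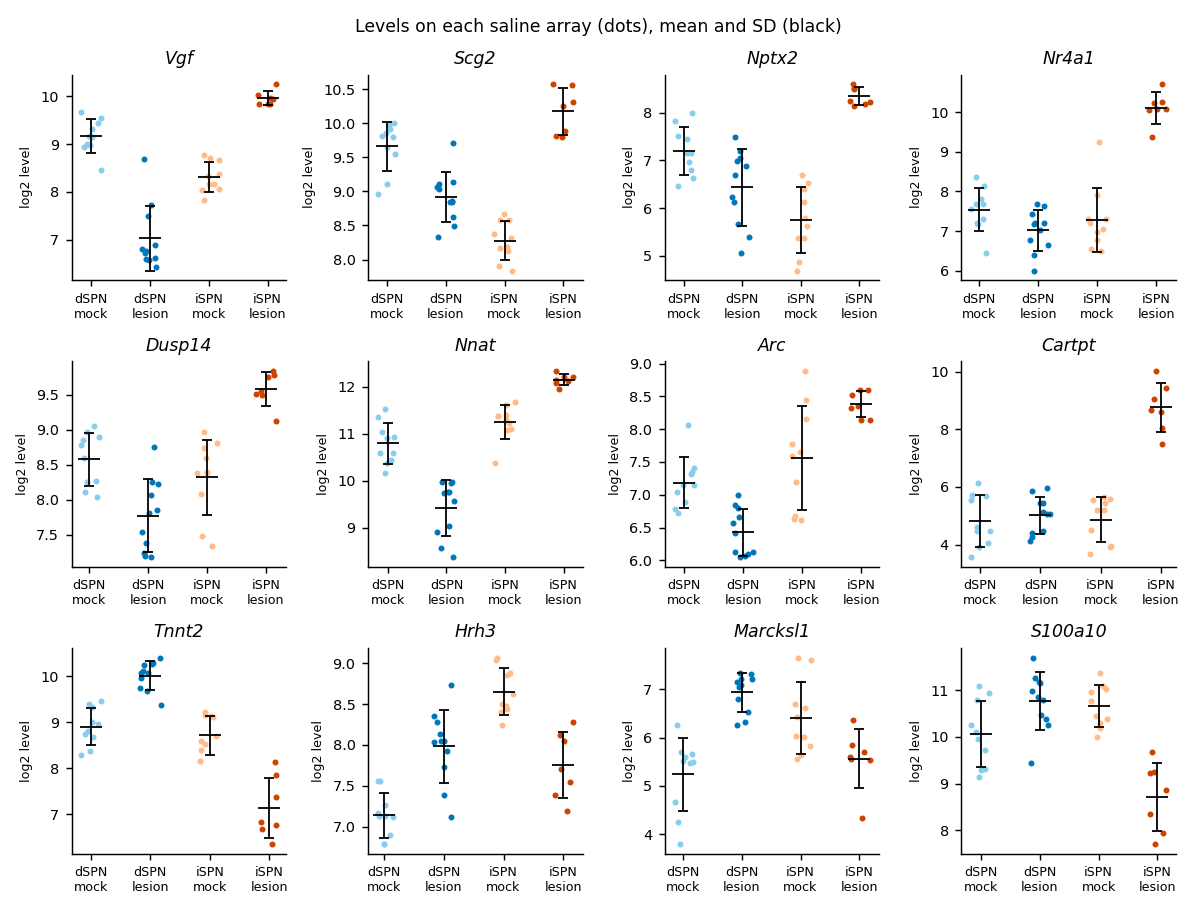
Log2 level of 12 genes on each of the 38 saline arrays (dots, spread sideways at random), with the group mean and SD in black, in mock (n = 10) and lesioned (n = 11) dSPN and in mock (n = 10) and lesioned (n = 7) iSPN. Each panel has its own vertical range. Vgf, Scg2, Dusp14, Nnat and Arc fall in dSPN and rise in iSPN, and Tnnt2 and Hrh3 do the opposite.

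Nuclear factors that neurons switch on with activity gave called differences of 1 sign. Of 38 such genes 36 were tested. A lower lesion effect in dSPN was called for 13 and a higher one for none (36.1% called, against 4.86% of all genes). The gene lists were chosen with earlier results of these data known. Their median difference was -0.53, from a median effect of -0.13 in dSPN and 0.24 in iSPN. In dSPN 5 fell and none rose, and in iSPN 11 rose and none fell. Over all genes 1.84% fell and 0.64% rose in dSPN, and 3.19% rose and 3.01% fell in iSPN. With the run block 7 remained called lower.

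The largest differences among them were those of the orphan nuclear receptor Nr4a1, of Fos, of Nr4a3 and of Fosl2, a Fos-related AP-1 subunit. The lowest, median and highest dSPN levels of Nr4a1 were 6.46, 7.63 and 8.38 in mock mice and 6.01, 7.19 and 7.69 in lesioned mice. The iSPN levels were 6.49, 7.13 and 9.25 in mock and 9.37, 10.07 and 10.71 in lesioned mice. All lesioned iSPN arrays were above all mock iSPN arrays, although 1 mock array at 9.25 came close, and the dSPN groups overlapped. The difference was -3.35 (SE 0.39, adjusted p = 7.12e-10), made of -0.52 in dSPN (adjusted p of that effect = 0.374) and 2.83 in iSPN (adjusted p of that effect = 1.54e-11).

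Nr4a3 was called in both lines, in iSPN only without the block (blocked adjusted p of that effect = 0.0796). Mock dSPN arrays had Nr4a3 levels of 6.29, 7.55 and 8.67 (lowest, median, highest), and lesioned ones 4.88, 5.57 and 7.40. Mock iSPN arrays had 6.68, 7.72 and 8.50, and lesioned ones 8.17, 8.81 and 9.09. Both pairs of groups overlapped. The effects were -1.61 in dSPN and 1.04 in iSPN, and the difference was -2.65 (SE 0.39, adjusted p = 9.03e-07).

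Fosl2 lay between 6.76 and 8.87 in mock iSPN and between 9.42 and 9.90 in lesioned iSPN, with no overlap. In dSPN it lay between 7.02 and 8.41 and then between 6.15 and 7.44. The difference was -2.40 (SE 0.27, adjusted p = 4.9e-10). Fos itself had effects of -0.63 and 2.43 and a difference of -3.05 (SE 0.59, adjusted p = 0.000216), with overlapping groups in both lines, and it narrowly missed the call with the block (-3.24, adjusted p = 0.0515).

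Egr1, a zinc finger factor, behaved otherwise. It fell in dSPN (-0.49, adjusted p of that effect = 6.17e-05) and had an effect of 0.07 in iSPN that was not called, with a difference of -0.56 (SE 0.13, adjusted p = 0.00247). Nor did every factor differ: Junb had -0.50 (SE 0.16, adjusted p = 0.0615) and Fosb -0.67 (SE 0.32, adjusted p = 0.266), and both missed the call. The remaining called factors, which the naming rule does not reach, were Crem (-2.23), Ier3 (-1.72), Gadd45b (-1.41), Csrnp1 (-1.33), Klf10 (-0.95), Ier5 (-0.68) and Egr4 (-0.65). Per1, named with the clock genes below, is also among the 13. Of these, Crem was called in both lines (-0.82 in dSPN and 1.41 in iSPN), although its dSPN effect was not called with the block (adjusted p = 0.167). With the block Gadd45b (adjusted p = 0.391), Csrnp1 (adjusted p = 0.269), Ier5 (adjusted p = 0.0747), Egr4 (adjusted p = 0.215) and Per1 (adjusted p = 0.642) were not called by the difference and the others were.

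Synaptic and secreted proteins that follow activity had called differences mostly of that sign too. Of 28 such genes 26 were tested, with 10 lower and 1 higher in dSPN by the difference and a median difference of -0.76. The share called was 42.3%, against 4.86% of all genes. In iSPN 12 rose and none fell (3.19% and 3.01% of all genes), while in dSPN 5 fell and 2 rose (1.84% and 0.64% of all genes). With the block 6 stayed called lower and none higher. Vgf and Scg2 belong to this list too.

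Levels of Nptx2 in dSPN ran 6.46, 7.15 and 7.99 (lowest, median, highest) after mock lesion and 5.06, 6.70 and 7.49 after 6-OHDA. Those in iSPN ran 4.69, 5.71 and 6.70 after mock lesion and 8.14, 8.24 and 8.60 after 6-OHDA. Nptx2, a pentraxin released by neurons that gathers AMPA receptors at synapses, thus had non-overlapping groups in iSPN and overlapping ones in dSPN. Its effect was -0.76 in dSPN (adjusted p of that effect = 0.0587) and 2.59 in iSPN, and the difference was -3.35 (SE 0.35, adjusted p = 2.7e-11). Another Nptx2 probe set was called with the same sign. Inhba, a subunit of the growth factor activin, had -0.56 in dSPN against 1.55 in iSPN, with a difference of -2.12 (SE 0.36, adjusted p = 2.19e-05). Its antagonist Fst (follistatin) was the single called member with the opposite sign, at 1.25 in dSPN and -0.71 in iSPN. The Fst difference of 1.96 (SE 0.37, adjusted p = 0.000156) missed the call with the block (adjusted p = 0.0791).

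Arc, a protein that controls AMPA receptor removal at active synapses, was called in both lines, and with the block in neither (adjusted p = 0.454 in dSPN and 0.207 in iSPN), while its difference stayed called. In dSPN the lowest, median and highest levels of Arc were 6.72, 7.15 and 8.07 after mock lesion and 6.04, 6.42 and 7.00 after the lesion. In iSPN they were 6.62, 7.62 and 8.89 after mock lesion, then 8.14, 8.36 and 8.60. The lesioned iSPN arrays were tightly grouped and lay within the mock range, which was wide, and 1 mock dSPN array stood apart at 8.07. The effects were -0.76 and 0.82, with a difference of -1.58 (SE 0.28, adjusted p = 5.64e-05). The other called members outside the naming rule were Sorcs3 (-1.57), Pim1 (-1.21), Rgs2 (-0.99), Fbxo33 (-0.84) and Plk2 (-0.35). With the block Sorcs3 (adjusted p = 0.245), Pim1 (adjusted p = 0.307), Fbxo33 (adjusted p = 0.131) and Plk2 (adjusted p = 0.0515) were not called by the difference and Rgs2 was.

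Regulators that limit MAP kinase signalling, only some of which ERK signalling itself induces, made a list of 25 tested genes. By the difference 8 were lower and none higher in dSPN (32% called, against 4.86% of all genes), with a median of -0.36. In dSPN 7 fell and none rose, against 1.84% and 0.64% of all genes. In iSPN 4 rose and 2 fell, against 3.19% and 3.01% of all genes. With the block 4 stayed called lower.

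The phosphatase gene Dusp14 changed in both lines, in dSPN only without the block (blocked adjusted p of that effect = 0.167). The lowest, median and highest dSPN levels of Dusp14 were 8.04, 8.69 and 9.05 in mock mice and 7.17, 7.80 and 8.75 in lesioned mice. The iSPN levels were 7.34, 8.39 and 8.97 in mock and 9.12, 9.55 and 9.84 in lesioned mice. The iSPN groups were apart and the dSPN groups overlapped, with effects of -0.81 and 1.26 and a difference of -2.07 (SE 0.29, adjusted p = 2.24e-07). Dusp6, an ERK phosphatase, fell in dSPN by 1.33 and had an effect of 0.36 in iSPN (adjusted p of that effect = 0.449). In dSPN Dusp6 ran 6.92, 7.80 and 8.09 (lowest, median, highest) after mock lesion and 5.65, 6.36 and 7.03 after the lesion, overlapping at the edge, and the difference was -1.69 (SE 0.32, adjusted p = 0.000145). Dusp5 (-1.39, blocked adjusted p = 0.075) and Dusp4 (-1.33, blocked adjusted p = 0.234) lost their call with the block. Outside the naming rule were Dusp3 (-1.21), Spry2 (-0.93), Dusp1 (-0.92) and Dusp7 (-0.75). Dusp3 was called in both lines, at -0.65 and 0.57, and Spry2 fell in dSPN with almost no effect in iSPN (-0.94 and -0.01). With the block Dusp1 (adjusted p = 0.0606) and Dusp7 (adjusted p = 0.399) were not called by the difference and the others were.

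**Figure D4:**
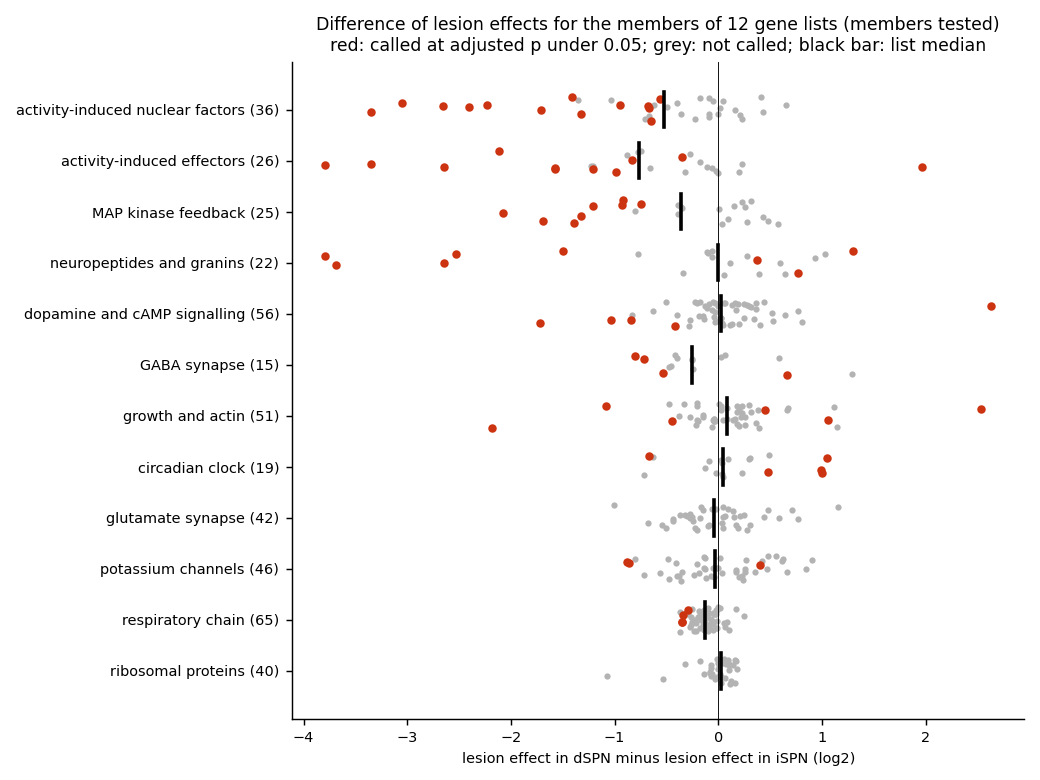
Lesion effect in dSPN minus lesion effect in iSPN (log2) for each tested member of 12 of the 26 gene lists, with the number of members in brackets. Red dots were called at an adjusted p under 0.05, grey dots were not, and black bars are list medians. Called members of the nuclear factor and MAP kinase lists all lie below 0, and those of the effector list do so except Fst.

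Among receptors and cyclic AMP signalling genes most calls were lower in dSPN. Of 56 tested genes of dopamine and other receptors and the cyclic AMP pathway, 1 was higher and 4 were lower in dSPN (8.93% called, against 4.86% of all genes). The median difference was 0.02, and the tested genes held no adenosine receptor. With the block 3 stayed called lower. Neither Drd1 (0.44, SE 0.19, adjusted p = 0.209) nor Drd2 (-0.11, SE 0.26, adjusted p = 0.888) was called, but the other Drd1 probe set above the filter was, at 0.58 (adjusted p = 0.0341 over all probe sets). The called genes were the cannabinoid receptor Cnr1 (-0.50 in dSPN and 1.22 in iSPN, difference -1.72, SE 0.31, adjusted p = 5.39e-05), the phosphodiesterase Pde1c (0.14 and 1.18, difference -1.04, SE 0.27, adjusted p = 0.00959) and Rgs4. Rgs4 speeds the shut-off of G proteins. Mock dSPN arrays had Rgs4 levels of 11.42, 11.66 and 11.79 (lowest, median, highest), and lesioned ones 11.25, 11.38 and 11.70. Mock iSPN arrays had 10.93, 11.24 and 11.57, and lesioned ones 11.71, 11.92 and 11.99. Its lesioned iSPN arrays were all above the mock ones, and the difference was -0.85 (SE 0.12, adjusted p = 9.03e-07). A further probe set of Cnr1, 2 of Rgs4 and 3 of Pde1c were called with the same sign.

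Rapgef3, a cyclic AMP-gated exchange factor, was the single higher member, at 2.63 (SE 0.82, adjusted p = 0.0427), and varied widely between arrays. Its lesioned iSPN arrays ran from 3.14 to 9.51, neither line's own effect was called, and the call was lost with the block (adjusted p = 0.614) and in at least 1 fit that left out 1 array. The fourth lower member, outside the naming rule, was the phosphodiesterase Pde7b (-0.41, blocked adjusted p = 0.161).

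Genes of GABA synthesis rose in iSPN without a counterpart in dSPN. Gad1 and Gad2 encode both glutamate decarboxylases, which make GABA, the transmitter of dSPN and iSPN alike. Levels of Gad1 in dSPN ran 9.93, 10.28 and 10.53 (lowest, median, highest) after mock lesion and 9.96, 10.43 and 10.74 after 6-OHDA. Those in iSPN ran 10.00, 10.29 and 10.75 after mock lesion and 10.84, 11.26 and 11.50 after 6-OHDA. For Gad1 the iSPN groups did not overlap and the dSPN groups did. Gad1 had effects of 0.12 and 0.84 and a difference of -0.72 (SE 0.16, adjusted p = 0.00152), with a blocked adjusted p of 0.0718. Gad2 had 0.04 and 0.57, non-overlapping iSPN groups and a difference of -0.53 (SE 0.09, adjusted p = 1.73e-05), which stayed called with the block (adjusted p = 0.00702).

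Of the 15 tested genes of the GABA synapse 3 were lower and 1 was higher (26.7% called, against 4.86% of all genes), with a median difference of -0.25. The scaffold gephyrin (Gphn) was lower at -0.81 (SE 0.18, adjusted p = 0.00249), and the extrasynaptic receptor subunit Gabrd was higher at 0.66 (SE 0.20, adjusted p = 0.037), although its other probe set above the filter had the opposite sign and the block removed the call (adjusted p = 0.369). None of the 42 glutamate receptor and scaffold genes was called by the difference in limma (median -0.04), against 4.86% of all genes. At an unadjusted p under 0.05 in limma there were 10 of these 42, against 2239 of all 13271 genes. Among 21 markers shared by both classes of neuron 4 were called (19%), Gad1 and Gad2 with Ptpn5 and Dclk3. Ptpn5, the striatal phosphatase STEP, had -0.53 (SE 0.10, adjusted p = 0.000214), with 1 of 2 other probe sets of the opposite sign. The kinase gene Dclk3 had 0.55 (SE 0.15, adjusted p = 0.0184) and lost its call with the block (adjusted p = 0.764).

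Several genes at the extremes stood outside these lists. The lowest difference of all was that of C030013G03Rik, a gene of no assigned function. In dSPN the lowest, median and highest levels of C030013G03Rik were 4.14, 5.53 and 7.16 after mock lesion and 2.40, 3.97 and 5.79 after the lesion. In iSPN they were 3.39, 4.52 and 5.79 after mock lesion, then 6.13, 8.15 and 8.50. The iSPN groups were apart although 1 lesioned array, at 6.13, stood well below the rest, and the dSPN groups overlapped. The effects were -1.68 and 3.27, and the difference was -4.95 (SE 0.53, adjusted p = 6.49e-11). Anxa3, a calcium-dependent phospholipid-binding annexin, rose in iSPN from a median of 4.16 to 8.59 with no overlap, and had 0.53 in dSPN and 4.24 in iSPN, with a difference of -3.71 (SE 0.44, adjusted p = 2.3e-09).

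Mir670hg, a host transcript of a microRNA, had -2.17 and 1.27 and a difference of -3.44 (SE 0.50, adjusted p = 7.79e-07). Ptges3l had -1.95 and 1.03 (difference -2.98, SE 0.44, adjusted p = 1.16e-06), and Aard -0.53 and 2.24 (difference -2.77, SE 0.52, adjusted p = 0.000111). The groups of all 3 overlapped in both lines. Tagln, an actin-binding protein known from smooth muscle, had nearly equal and opposite effects of -1.36 and 1.36, and its difference of -2.72 (SE 0.45, adjusted p = 1.49e-05) was lost with the block (adjusted p = 0.0655). Rnd3, a small GTPase that loosens actin fibres, had -0.82 and 1.37, a difference of -2.19 (SE 0.38, adjusted p = 3.68e-05).

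Nnat, which encodes the small membrane protein neuronatin, was the 1 named gene called in opposite directions whose groups were apart in both lines, although its iSPN effect was not called with the block (adjusted p = 0.181). The lowest, median and highest dSPN levels of Nnat were 10.16, 10.76 and 11.53 in mock mice and 8.36, 9.73 and 9.98 in lesioned mice. The iSPN levels were 10.39, 11.34 and 11.68 in mock and 11.96, 12.14 and 12.35 in lesioned mice. The effects were -1.38 and 0.90 and the difference was -2.28 (SE 0.24, adjusted p = 2.7e-11). Within run 1 the dSPN effect was -1.44, and within runs 5 and 6 the iSPN effects were 0.97 and 0.79. Gbe1, the glycogen branching enzyme, was called in both lines at -1.07 and 1.04, with overlapping groups and a blocked adjusted p of 0.185 for its difference of -2.11.

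The opposite pattern, up in dSPN and down in iSPN, was led by Tnnt2, a troponin T best known from heart muscle. Mock dSPN arrays had Tnnt2 levels of 8.30, 8.89 and 9.46 (lowest, median, highest), and lesioned ones 9.37, 10.07 and 10.41. Mock iSPN arrays had 8.16, 8.65 and 9.23, and lesioned ones 6.35, 6.83 and 8.13. The iSPN groups did not overlap, although the iSPN effect missed the call with the block (adjusted p = 0.0801), and the dSPN groups met only at their edges. The effects were 1.11 and -1.58, the difference was 2.69 (SE 0.29, adjusted p = 8.03e-11), and a second probe set of Tnnt2 was called with the same sign. Within run 1 the dSPN effect was 1.14, and the iSPN effects were -1.37 in run 5 and -1.04 in run 6.

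Hrh3, the histamine H3 receptor, which couples to inhibitory G proteins, rose and fell by nearly equal amounts, the fall in iSPN not being called with the block (adjusted p = 0.214). Levels of Hrh3 in dSPN ran 6.79, 7.13 and 7.56 (lowest, median, highest) after mock lesion and 7.11, 8.05 and 8.73 after 6-OHDA. Those in iSPN ran 8.24, 8.56 and 9.07 after mock lesion and 7.19, 7.70 and 8.28 after 6-OHDA. Both pairs of groups overlapped at their edges, and the effects of 0.84 and -0.90 gave a difference of 1.74 (SE 0.22, adjusted p = 1.51e-08). Fam126a, needed for a lipid kinase complex at the plasma membrane, had 1.13 in dSPN, where the groups were apart, and -0.97 in iSPN. Its difference was 2.10 (SE 0.31, adjusted p = 1.36e-06), and its iSPN effect was not called with the block (adjusted p = 0.152). Cys1, a ciliary protein, had 0.97 and -1.09, a difference of 2.06 (SE 0.36, adjusted p = 3.33e-05), but its other probe set showed no such difference (0.05, adjusted p = 0.906 over all probe sets). With the block neither effect of Cys1 was called (adjusted p = 0.127 in dSPN and 0.0833 in iSPN).

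Other large positive differences came mostly from 1 line. S100a10 (p11), a partner of annexin A2 that binds serotonin receptors, fell in iSPN, an effect not called with the block (adjusted p = 0.205). In dSPN the lowest, median and highest levels of S100a10 were 9.14, 10.03 and 11.10 after mock lesion and 9.44, 10.85 and 11.69 after the lesion. In iSPN they were 10.00, 10.60 and 11.36 after mock lesion, then 7.70, 8.86 and 9.67. Its iSPN groups were apart, its dSPN groups overlapped, and the difference was 2.64 (SE 0.44, adjusted p = 1.7e-05). Sulf1, which trims sulfate groups from heparan sulfate, had 0.58 and -2.22 with non-overlapping iSPN groups, and its difference was 2.79 (SE 0.47, adjusted p = 1.48e-05). Fam163b had 0.20 and -1.96, again with non-overlapping iSPN groups, and a difference of 2.16 (SE 0.29, adjusted p = 7.05e-08).

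Marcksl1, an actin-binding substrate of protein kinase C, changed in dSPN. The lowest, median and highest dSPN levels of Marcksl1 were 3.79, 5.50 and 6.27 in mock mice and 6.25, 7.10 and 7.33 in lesioned mice. The iSPN levels were 5.56, 6.22 and 7.66 in mock and 4.34, 5.60 and 6.35 in lesioned mice. The dSPN groups met at their edges, and in iSPN 1 lesioned array at 4.34 stood below the others. The effects were 1.69 and -0.84 (adjusted p of the iSPN effect = 0.102), the difference was 2.54 (SE 0.42, adjusted p = 1.46e-05), and all 3 of its other probe sets were called with the same sign. Gpr149, an orphan receptor listed among the dSPN markers, had 0.92 in dSPN, with groups apart, and -0.67 in iSPN, and its difference of 1.59 (SE 0.34, adjusted p = 0.000933) was lost with the block (adjusted p = 0.134). The block also removed the calls of Gpx6, a glutathione peroxidase (2.54, blocked adjusted p = 0.252), Syce2 (2.20, 0.289) and N4bp2 (2.07, 0.157).

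Of the 58 genes called in both lines in opposite directions, some more are given here by function, chosen after their values were seen. Falling in dSPN and rising in iSPN were the vesicle protein Syt6 (-0.84 and 1.05), the retinol carrier Rbp4 (-0.70 and 1.44), the growth factor binding protein Igfbp6 (-0.76 and 1.00), the G protein-coupled receptor Mas1 (-0.72 and 0.82) and spermidine synthase Srm (-0.51 and 0.59). The kinases Sik3 (-0.36 and 0.48) and Prkcb, a protein kinase C (-0.28 and 0.16), moved the same way by smaller amounts. Rising in dSPN and falling in iSPN were Pea15a, a cytoplasmic anchor of ERK (1.04 and -0.70), the ERK target Elk1 (0.38 and -0.51), the thyroid hormone receptor Thra (0.26 and -0.51), the oxygen-binding globin Cygb (0.56 and -0.59) and the phosphatase inhibitor Ppp1r2 (0.25 and -0.18). The difference stayed called with the block for all 12, but of these only Syt6, Mas1, Srm and Sik3 were then still called in both lines.

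Called ion channel genes went in both directions. Of 46 potassium channel genes 1 was higher and 2 were lower (6.52% called, against 4.86% of all genes, median -0.03). Kcnq3, a subunit of the M-current, fell in dSPN and had a difference of -0.88 (SE 0.16, adjusted p = 0.000116) that the block removed (adjusted p = 0.197). The channel partners Kcnip4 (-0.86, SE 0.15, adjusted p = 4.39e-05) and Kcnip2 (0.40, SE 0.07, adjusted p = 0.000103) had opposite signs. Of 21 sodium and calcium channel genes Cacna1c, the pore of an L-type calcium channel, was higher (1.22, blocked adjusted p = 0.235) and the subunit Cacnb4 lower (-0.48, SE 0.09, adjusted p = 9.47e-05), which makes 9.52% called. The 2 other probe sets of Kcnip4 and the 2 of Cacnb4 had the same sign, but none was called.

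Growth and actin genes split evenly, with 3 higher and 3 lower of 51 (11.8% called, against 4.86% of all genes, median 0.08). Beside Marcksl1 and Rnd3, the factor Sox11 rose in dSPN by 1.19 and had 0.13 in iSPN, a difference of 1.06 (blocked adjusted p = 0.28). The guidance receptor Nrp2 was at -1.08 (blocked adjusted p = 0.923), and the calls outside the naming rule were Gap43 (-0.45, blocked adjusted p = 0.118) and Stmn1 (0.45, blocked adjusted p = 0.211). Among 19 clock genes 4 were higher and 1 was lower (26.3% called, median 0.05). In iSPN 6 of them fell (3.01% of all genes), while 1 fell in dSPN (1.84% of all genes). Per3 (1.04, blocked adjusted p = 0.123), Ciart (1.00, 0.423) and Bhlhe41 (0.99, 0.712), with Tef (0.48) outside the naming rule, were higher in dSPN by the difference and Per1, which activity also induces, lower (-0.67), and none of the clock genes was called with the block. Of 3 other Per3 probe sets none was called and 1 had the opposite sign.

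Respiratory chain genes had small differences, mostly of 1 sign. The difference was negative in 58 of 65 tested members, against 6525 of all 13271 genes, with a median of -0.13. Only 4 were called, a share of 6.15% that is close to the 4.86% of all genes. These were Cycs (-0.35, SE 0.07, adjusted p = 0.000454), Atp5e (-0.35, blocked adjusted p = 0.343), Atp5d (-0.34, 0.465) and Ndufs3 (-0.30, 0.33), of which Cycs alone stayed called with the block (adjusted p = 0.0299). Of 3 other Cycs probe sets 2 had the same sign, and 1 of these was called. No ribosomal protein gene of 40 (median 0.02; 2 at an unadjusted p under 0.05) and no stress or chaperone gene of 34 (median -0.05; 3) was called in limma. Of 18 sterol genes only the regulator Srebf2 was (-1.29, blocked adjusted p = 0.0905). Of 15 genes listed as dSPN markers Gpr149 and Nnat were called, and of 10 iSPN markers Penk and the guanylate cyclase subunit Gucy1a1 (0.55, blocked adjusted p = 0.502). Gpr149 and Nnat did not mark dSPN in these arrays. Their mock means were higher in iSPN (5.56 and 11.25) than in dSPN (4.65 and 10.80).

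Markers of each neuron class also moved in the arrays of the other class. In iSPN arrays 4 of 15 dSPN markers fell: Drd1 (-0.47, adjusted p of that effect = 0.0356), Isl1 (-0.93, 0.0143), Pdyn (-0.99, 0.00889) and Tac1 (-0.42, 0.00921). The 1 that rose was Nnat, whose mock mean was the higher in iSPN. Over all genes 3.01% fell and 3.19% rose in iSPN. The median iSPN effect of the list was -0.49, against -0.03 in dSPN. The mean level of the list in iSPN was 7.26 ± 0.21 (SD, n = 10) after mock lesion, from 6.99 to 7.67, and 6.88 ± 0.23 (SD, n = 7) after the lesion, from 6.58 to 7.18, so that the groups overlapped. In dSPN it was 9.06 ± 0.06 (SD, n = 10) and 8.96 ± 0.15 (SD, n = 11). The mean of 10 iSPN markers in dSPN was 6.81 ± 0.10 (SD, n = 10), from 6.66 to 6.98, and then 7.00 ± 0.17 (SD, n = 11), from 6.74 to 7.24, again with overlap, and Penk was the 1 member that rose there. The part of these markers in the results was not tested.

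Markers of other cells moved in part with the comparison. The mean level of 15 of 16 astrocyte markers was 6.70 ± 0.25 (SD, n = 10) in mock dSPN and 7.00 ± 0.16 (SD, n = 11) in lesioned dSPN, and 7.23 ± 0.22 (SD, n = 10) and 7.10 ± 0.36 (SD, n = 7) in iSPN. Over arrays it ranged from 6.43 to 7.09 and 6.74 to 7.27 in dSPN and from 6.74 to 7.61 and 6.71 to 7.73 in iSPN, overlapping throughout. For 17 of 19 oligodendrocyte markers the means were 6.52 ± 0.32, 6.77 ± 0.28, 7.35 ± 0.37 and 7.23 ± 0.44, within ranges of 6.06 to 7.05, 6.38 to 7.43, 6.78 to 7.97 and 6.86 to 8.17. The difference between the lines had a median of 0.32 over the astrocyte and 0.41 over the oligodendrocyte markers, with 1 called of the former (Aldh1l1, 1.49, SE 0.36, adjusted p = 0.0049) and none of the latter in limma (4 at an unadjusted p under 0.05). With the oligodendrocyte mean of each array as a covariate 549 genes were called, 503 of the 645 among them, and with the astrocyte mean 482, with 429 of the 645.

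Of 9 tested GABA interneuron markers Sst was called (median difference 0.63), and of 11 microglia markers Tyrobp was higher (1.57, blocked adjusted p = 0.35) and Cd68 lower (-0.93, blocked adjusted p = 0.423). The mean of 4 cholinergic markers was 4.17 ± 0.17 and 4.23 ± 0.27 in mock and lesioned dSPN and 5.02 ± 0.30 and 5.40 ± 0.35 in iSPN, and none was called by the difference in limma (0 at an unadjusted p under 0.05). Of 6 markers of dopamine neurons and terminals Slc18a2, the vesicular monoamine transporter, was called (-1.89, blocked adjusted p = 0.752), and Th, tyrosine hydroxylase, was not (-0.38, adjusted p = 0.692). None of 4 endothelial or mural and 2 cortical pyramidal markers was called in limma (0 and 0 at an unadjusted p under 0.05). The part of the interneuron, microglial and dopamine terminal markers in the results was not tested.

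Lesioned mice on levodopa, the precursor of dopamine, received it daily with benserazide, which blocks its conversion outside the brain, at 1 and then 2 mg/kg (low dose) or 3 and then 6 mg/kg (high dose). Their levels are given as a description, since a test against lesioned saline arrays would share those arrays with the lesion effect. Vgf in dSPN, at a mean of 9.17 after mock lesion and 7.03 after the lesion, stood at 9.52 ± 0.28 (SD, n = 12) with the low and 10.18 ± 0.31 (SD, n = 11) with the high dose. In iSPN, where the lesion took it from 8.31 to 9.96, it stood at 8.60 ± 0.47 and 8.91 ± 0.39 (SD, n = 8 each). On levodopa the mean of Vgf was again higher in dSPN than in iSPN, as in mock mice.

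Scg2 had means of 11.06 and 11.47 in dSPN and 9.24 and 9.21 in iSPN at the low and high dose, each above the mock mean of its own line (9.66 and 8.27). Nptx2 had 10.06 and 10.70 in dSPN, above mock (7.20), but 7.98 and 8.09 in iSPN, close to the lesioned saline mean of 8.34. Cartpt in iSPN stood at 7.64 and 7.56, between the mock (4.87) and lesioned saline (8.76) means, and Nts in iSPN at 9.42 and 10.19, beside a lesioned saline mean of 9.59.

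Among the genes of the opposite sign, Tnnt2 in iSPN had means of 7.66 and 7.93 on levodopa, between lesioned saline (7.14) and mock (8.72). In dSPN Tnnt2 stood at 9.58 and 9.44, between lesioned saline (10.02) and mock (8.91) as well. S100a10 in iSPN, at 9.37 and 8.85, stayed nearer to lesioned saline (8.72) than to mock (10.65). Hrh3 in iSPN went from 7.75 with saline to 8.16 and 8.64, beside a mock mean of 8.65.

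**Figure D5:**
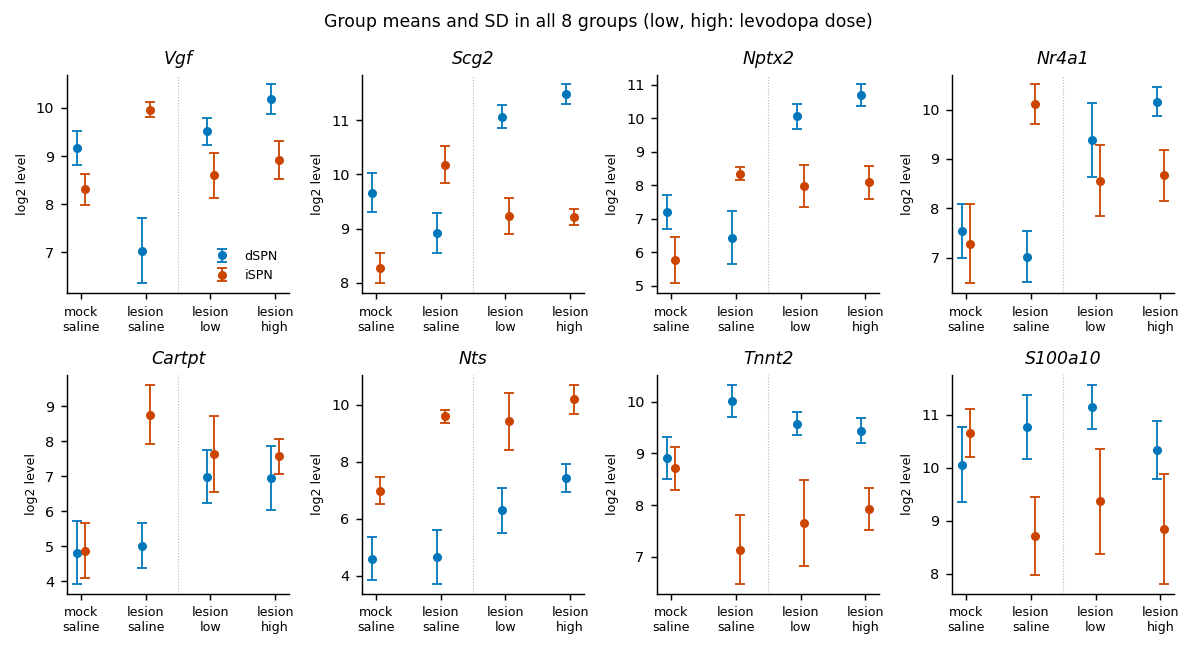
Group mean and SD of the log2 level of 8 genes in dSPN (blue) and iSPN (orange), in mock mice on saline and in lesioned mice on saline, low-dose and high-dose levodopa. Each panel has its own vertical range, and the dotted line parts the saline groups from the levodopa groups. In mock mice and on levodopa the Vgf mean is higher in dSPN, and in lesioned mice on saline it is higher in iSPN.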

How the data were processed

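Each of the 77 arrays is 1 mouse. The deposited values are log2 levels per probe set, which the authors made with RMA and the affy package per the submitters' processing notes (versions not given). The number of arrays limits the precision. Neither scanner files nor detection calls were used here. Of 45101 probe sets, 34958 carry a single gene symbol, 932 several and 9211 none; of the single-symbol ones 34754 were in the GRCm38.p6 gene table, and no symbol changed. A gene was its single-symbol probe set with the highest mean, tested if that mean exceeded 3.55, the 40th percentile over all probe sets.

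The fit was lmFit and eBayes in limma 3.58.1 (R 4.3.3) on 8 group means, with 69 residual degrees of freedom, two-sided, and was tested on simulated data. Named genes are the 12 highest and 12 lowest called differences, up to 12 genes called in both lines in opposite directions (largest smaller effect first), up to 4 called members of each of 26 lists, and a panel of 12 (Arc, Drd1, Drd2, Egr1, Fos, Fosb, Junb, Nr4a1, Pdyn, Penk, Tac1 and Th). The comparison, the lists and the rule were chosen with earlier results of these data known. Replicate numbers are unique to an array and pair nothing. Alternatives took run as a fixed or a random block, run 1 alone for dSPN, the saline arrays alone, array weights, every probe set, other filters, another quantile normalization, trended robust variances, glial covariates, other thresholds and leaving out each saline array.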

Additional observations from a re-analysis of the deposited data

Results flagged for a closer look

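The lesion effects of dSPN and iSPN differed for 645 genes by the test of the difference itself, and 58 genes were called in both lines in opposite directions. Among 3086 probe sets above the filter that carry several gene symbols or none and entered no comparison of genes, 89 were called by the same difference, 31 higher and 58 lower in dSPN.

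For the named genes, 234 groups of 7 or 10 arrays were searched for an array far from the others by Dixon's 95% criterion. They were those of mock dSPN, mock iSPN and lesioned iSPN, and lesioned dSPN (11 arrays) was not searched. An array of this kind was found in 15 groups (6.41%), where chance gives about 1 in 20. In mock dSPN these were Arc at 8.07, Cd68 at 7.79 and Gpr149 at 3.81. In mock iSPN they were Ciart at 7.28, Kcnip2 at 12.35, Ndufs3 at 11.27, Nnat at 10.39, Nr4a1 at 9.25, Nts at 5.92 and Sst at 6.11. In lesioned iSPN they were C030013G03Rik at 6.13, Cycs at 11.80, Kcnq3 at 10.51, Marcksl1 at 4.34 and Tac1 at 8.44. The lesioned iSPN array numbered 75 accounted for 3 of the 15, the most for a single array.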

How the results depend on the processing

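No sign of a named called gene turned under the alternatives run, which reuse arrays that picked these genes. With run as a fixed block 148 genes were called (39 higher and 109 lower in dSPN) and 11 were called in both lines in opposite directions, and with the dSPN effect from run 1 alone 129 (41 and 88) and 6. At an adjusted p under 0.01 the count was 343 (109 and 234), and at 0.1 in each line 93 genes were called in opposite directions. The other alternatives gave 482 (astrocyte covariate) to 787 genes (every probe set) and 46 (saline arrays alone) to 77 (array weights) in opposite directions. Leaving out each saline array gave 538 to 754 genes, 188 to 248 higher, 345 to 506 lower and 48 to 72 in opposite directions. Of the 71 named called genes 39 kept their call with the fixed block, 35 with run 1 alone, 59 in all 38 fits without 1 array, and 29 in every alternative. Without 1 array, Per1 lost its call in 26 fits (adjusted p up to 0.0803), Rapgef3 in 13 (up to 0.149), Dusp4 in 11 (0.075), Gabrd in 11 (0.101), Nrp2 in 10 (0.0922), Cd68 in 5 (0.064) and Sst in 4 (0.0654). Lesioned iSPN arrays decided Dclk3 (adjusted p = 0.0524 without array 77), Slc18a2 (0.0553 without array 77), Ciart (0.0603 without array 79) and Tyrobp (0.066 without array 79), and Atp5e lost its call without mock iSPN array 48 or lesioned iSPN array 55 (up to 0.0596). With the block the iSPN effect rests on runs 5 and 6 alone, and the cause of the lower counts was not tested. No paired analysis was possible because the groups share no replicate numbers. Without detection calls no limit of detection was set, so levels near the filter value of 3.55 are the least certain.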
